A study of Mus musculus with 7 samples.

Results

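Tudor domains are small protein folds, many of which hold methylated arginine. Proteins that carry several of them form the scaffold of germ granules, the RNA- and protein-rich bodies of germ cells, where they bind PIWI proteins through the methylated arginines of their tails. In the fetal testis these granules are a site of piRNA production, and piRNAs guide the silencing of retrotransposons at a time when the germ cell genome loses its DNA methylation. The expression of 10 such genes was followed in the testes of wild-type and *Glis3* mutant mouse embryos. The genes were picked by symbol from the 24739 genes of a RefSeq expression table, and each symbol was found in 1 row. A class of 8 genes is restricted largely to the germ line (*Tdrd1*, *Tdrd5*, *Tdrd6*, *Tdrd9*, *Tdrd12*, *Tdrkh*, *Rnf17* and *Stk31*), and the other 2 genes, *Tdrd3* and *Tdrd7*, are active in many tissues. The classes rest on general knowledge of the genes and not on these data.

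Whole testes of C57BL/6 embryos were sequenced at E14.5, 1 pair of testes of 1 embryo in each of the 7 libraries. The WT group holds 3 wild-type embryos, and the Mutant group holds 4 embryos that lack GLIS3 function, which are homozygous for the *Glis3* zf5 allele, a deletion of exon 4 and adjoining intron sequence present in every cell of the embryo. GLIS3 is a zinc finger transcription factor, and the comparison asks which genes depend on it in the fetal testis. RNA was freed of ribosomal RNA and not selected for poly-A tails, so that the libraries also hold unspliced transcripts. In whole tissue, fewer germ cells and less RNA per germ cell give the same lower value and cannot be told apart.

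The deposited FPKM (fragment numbers corrected for the length of the transcript and the size of the library) have no fragment counts behind them, and relative depths read from the steps of the lowest values were 0.776 to 1.0 of WT replicate 1, an estimate that rests on a weak peak in most libraries. *Glis3* itself, the check of the labels, had 7.63, 6.89 and 2.91 FPKM in WT replicates 1 to 3 and 2.66 to 3.86 FPKM in the Mutant libraries. The library labelled WT replicate 3 thus lay within the Mutant range for the gene that defines the groups. In reads from the introns of *Glis3*, described further on, it had 213 CPM (reads scaled to the normalized library size) against 123 to 178 CPM in the Mutant libraries and 291 and 358 CPM in the other 2 WT libraries. The allele lacks exon 4 and adjoining intron sequence, so a level over the whole gene need not tell the genotypes apart. Set against other germ cell genes on a log2 scale, as described further on, *Glis3* averaged -1.77 in WT and -1.71 in Mutant. The groups overlapped on that scale (exact permutation p = 0.714). These values do not settle the genotype of any library. The tests below were run with and without the library labelled WT replicate 3. Germ cell genes were present in every library, with a summed level of 872 to 1780 FPKM over 17 genes in WT and 724 to 852 FPKM in Mutant.

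Promoter sequences were available for 8 of the 10 genes in RefSeq (assembly GRCm38.p6), and none was matched for *Tdrd6* and *Rnf17*. The windows are the 250 bases before the transcription start on the strand of the gene. Where RefSeq lists several starts, the one nearest to the start given with the FPKM was taken, at most 258 bases away (*Tdrd5*). The E-box CACGTG, a palindrome that reads the same on both strands and is bound by basic helix-loop-helix proteins such as MYC, MAX and USF factors, was found in 3 of the 8 windows, against 6.02% of 32851 windows of the same length over all genes. All 3 belong to germ-line-restricted genes, but so do the windows of *Tdrd5*, *Tdrd12* and *Tdrkh*, which have no E-box. The windows of the broadly expressed *Tdrd3* and *Tdrd7* have none either, so its presence does not separate the classes. The 3 windows are shown with that of *Tdrd3*. Capitals mark the E-box, which lies 11 bases before the start in *Tdrd1*, 165 and 95 bases in *Tdrd9* and 120 bases in *Stk31*. Measured from a further RefSeq start, the same E-box lies 77 bases away in *Tdrd1* and 55 bases away in *Stk31*. Another *Tdrd1* start has no E-box in its window.
Tdrd1 (chr19:56825959-56826208, plus strand): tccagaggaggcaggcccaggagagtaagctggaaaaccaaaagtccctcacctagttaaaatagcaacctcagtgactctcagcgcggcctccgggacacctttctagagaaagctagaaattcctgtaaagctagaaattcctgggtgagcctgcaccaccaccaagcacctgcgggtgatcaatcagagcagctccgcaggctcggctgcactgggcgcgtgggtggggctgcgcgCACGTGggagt
Tdrd9 (chr12:111971309-111971558, plus strand): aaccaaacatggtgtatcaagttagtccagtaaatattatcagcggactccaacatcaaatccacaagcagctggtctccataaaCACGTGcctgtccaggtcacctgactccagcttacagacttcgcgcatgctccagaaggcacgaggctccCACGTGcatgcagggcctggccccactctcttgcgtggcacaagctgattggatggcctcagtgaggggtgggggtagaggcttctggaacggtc
Stk31 (chr6:49395354-49395603, plus strand): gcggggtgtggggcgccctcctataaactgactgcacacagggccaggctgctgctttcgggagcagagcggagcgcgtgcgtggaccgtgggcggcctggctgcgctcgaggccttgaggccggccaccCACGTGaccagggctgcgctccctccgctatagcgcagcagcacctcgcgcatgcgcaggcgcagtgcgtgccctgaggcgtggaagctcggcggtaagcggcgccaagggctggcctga
Tdrd3 (chr14:87416333-87416582, plus strand): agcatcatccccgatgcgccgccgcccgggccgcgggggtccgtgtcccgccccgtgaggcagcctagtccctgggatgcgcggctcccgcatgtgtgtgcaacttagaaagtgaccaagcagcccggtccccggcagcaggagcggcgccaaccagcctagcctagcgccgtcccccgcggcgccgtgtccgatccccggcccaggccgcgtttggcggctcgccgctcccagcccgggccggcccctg

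Other words were searched in the same windows on both strands. GGCGGGA, a core of E2F sites, was found in 1 of the 8 windows (*Tdrd3*, on the opposite strand) and in 9.75% of all windows. TATAAA was found in 2 windows (*Stk31* and *Tdrd7*) and in 12.4% of all windows. The other RefSeq starts of *Tdrd7* have none in their windows. TGGGGGGT, a core of the sites bound by GLIS proteins, was in none of the 8 windows and in 1.36% of all windows. The word is rare and the windows are short, so its absence does not show that these promoters lack GLIS sites. The authors scanned longer promoter sequences with a motif model of GLIS3 and reported putative sites, several of them in *Tdrd5*. The 8 windows had a median G+C content of 58.2% (all windows, 52.4%) and a median of 15.0 CpG dinucleotides (all windows, 6.0). A match of letters is a description of the window and shows no binding.

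Among the germ-line-restricted genes, *Stk31*, *Rnf17*, *Tdrd5* and *Tdrd12* had the higher FPKM in WT and *Tdrd6* was close to 0. The mean WT levels ran from *Stk31* (86.5 FPKM) over *Tdrd3* (40.7), *Rnf17* (25.7), *Tdrd5* (24.4), *Tdrd12* (20.8), *Tdrd7* (12.5), *Tdrd1* (8.39), *Tdrd9* (6.25) and *Tdrkh* (5.85) to *Tdrd6* (0.0828). Neighbours in this order had overlapping ranges over the WT libraries, except that all WT values of *Tdrd3* were above those of *Rnf17* and all of *Tdrkh* above those of *Tdrd6*. In Mutant the broadly expressed *Tdrd3* was first (42.6 FPKM), ahead of *Stk31* (32.7), and these 2 ranges did not overlap. They were followed by *Rnf17* (12.5), *Tdrd12* (11.7), *Tdrd7* (9.14), *Tdrd5* (7.6), *Tdrkh* (2.99), *Tdrd1* (2.54), *Tdrd9* (1.26) and *Tdrd6* (0.0538).

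**Figure D1:**
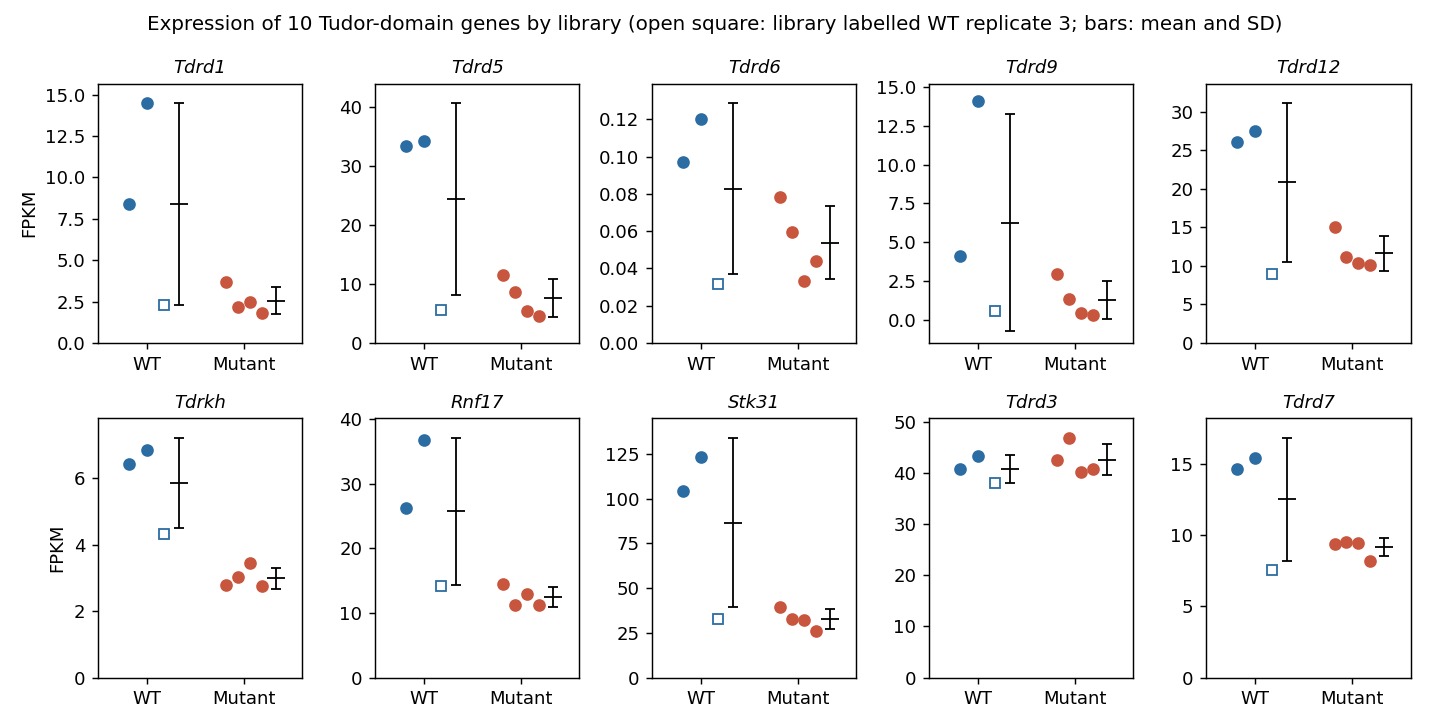
FPKM of the 10 Tudor-domain genes in each library (vertical axis, a linear scale of its own in each panel), with WT points in blue, Mutant points in red and the mean and SD beside each group. WT replicates 1 and 2 lie above every Mutant library for each germ-line-restricted gene, and the library labelled WT replicate 3 (open square) lies within or below the Mutant range except for *Tdrkh*.

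TDRD1, TDRD9, TDRD12 and TDRKH act directly with PIWI proteins. TDRD1 binds PIWIL2 (MILI) and is a core part of the granules between mitochondria of fetal germ cells. *Tdrd1* (chr19:56826209-56870012, plus strand) had 8.38, 14.5 and 2.28 FPKM in WT and 3.7, 2.17, 2.48 and 1.83 FPKM in Mutant. WT replicates 1 and 2 were above every Mutant library, and the library labelled WT replicate 3 was below 2 of the 4. The mean was 8.39 ± 6.11 FPKM (SD, n = 3) in WT and 2.54 ± 0.812 FPKM (SD, n = 4) in Mutant, a ratio of 0.303. On the log2(FPKM + 0.5) scale the difference was -1.27 (SE 0.5), which did not pass the threshold of 0.05 (limma, adjusted p = 0.255).

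TDRD9 joins Tudor and helicase domains and works beside PIWIL4 (MIWI2), the PIWI protein that enters the nucleus of fetal germ cells. *Tdrd9* (chr12:111971559-112068854, plus strand) had 4.11, 14.1 and 0.584 FPKM in WT and 2.96, 1.32, 0.427 and 0.339 FPKM in Mutant. Its highest value was 41.5 times its lowest. WT replicates 1 and 2 were highest here too, though WT replicate 1 was nearer to Mutant replicate 1 than to WT replicate 2. The means were 6.25 ± 6.99 (SD, n = 3) and 1.26 ± 1.21 FPKM (SD, n = 4), with a log2 difference of -1.49 (SE 0.83; limma, adjusted p = 0.392).

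TDRD12, a further Tudor protein with a helicase domain, takes part in secondary piRNA production. *Tdrd12* (chr7:35493610-35537744, minus strand) had 26, 27.5 and 8.92 FPKM in WT and 15, 11.1, 10.4 and 10.1 FPKM in Mutant. The library labelled WT replicate 3 was the lowest of all 7. The means were 20.8 ± 10.3 (SD, n = 3) and 11.7 ± 2.24 FPKM (SD, n = 4), and the log2 difference was -0.67 (SE 0.35; limma, adjusted p = 0.373).

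TDRKH sits on the mitochondrial surface through a membrane anchor and carries KH domains beside its Tudor domain. *Tdrkh* (chr3:94413318-94431499, plus strand) had 6.42, 6.84 and 4.31 FPKM in WT and 2.78, 3.02, 3.43 and 2.74 FPKM in Mutant. It was the only one of the 10 genes whose groups did not overlap, every Mutant library lying below every WT library, as did 7.59% of the 13988 genes tested. The means were 5.85 ± 1.36 (SD, n = 3) and 2.99 ± 0.319 FPKM (SD, n = 4), a ratio of 0.511. The log2 difference was -0.84 (SE 0.15), at an unadjusted p of 0.000505 and an adjusted p of 0.133 (limma). The two-sided exact permutation test gave p = 0.0286, the smallest value that the 35 splits of these libraries can give. *Oaz3* overlaps the annotated body of *Tdrkh*, and without strand in the reads the overlapping part cannot be assigned to either gene. Other annotated genes also overlap the bodies of *Rnf17*, *Stk31*, *Tdrd3*, *Tdrd5*, *Tdrd9* and *Tdrd12*.

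TDRD5, RNF17, STK31 and TDRD6 are germ granule proteins with further domains or later roles. TDRD5 is needed for retrotransposon silencing and for the shaping of spermatids. *Tdrd5* (chr1:156255296-156303606, minus strand) had 33.4, 34.3 and 5.62 FPKM in WT and 11.6, 8.66, 5.48 and 4.63 FPKM in Mutant. WT replicates 1 and 2 were close to each other and above every Mutant library, and the library labelled WT replicate 3 was below 2 of the 4 Mutant libraries. WT averaged 24.4 ± 16.3 FPKM (SD, n = 3) and Mutant 7.6 ± 3.19 FPKM (SD, n = 4), and the log2 difference was -1.34 (SE 0.6; limma, adjusted p = 0.301).

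RNF17 joins Tudor domains to a RING finger. *Rnf17* (chr14:56402697-56525031, plus strand) had 26.2, 36.8 and 14.1 FPKM in WT and 14.5, 11.3, 13 and 11.2 FPKM in Mutant. A single Mutant library, replicate 1, was above the library labelled WT replicate 3. The means were 25.7 ± 11.4 (SD, n = 3) and 12.5 ± 1.56 FPKM (SD, n = 4), a ratio of 0.486, and the log2 difference was -0.92 (SE 0.27; limma, adjusted p = 0.19).

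STK31 joins a Tudor domain to a kinase-like domain. *Stk31* (chr6:49395604-49469502, plus strand) had 104, 123 and 33 FPKM in WT and 39.6, 32.7, 32.2 and 26.3 FPKM in Mutant. As for *Rnf17*, Mutant replicate 1 alone was above the library labelled WT replicate 3. The means were 86.5 ± 47.3 (SD, n = 3) and 32.7 ± 5.47 FPKM (SD, n = 4), a ratio of 0.378, with a log2 difference of -1.2 (SE 0.4; limma, adjusted p = 0.21). For *Rnf17* and *Stk31* the exact permutation test gave p = 0.0571.

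TDRD6 belongs to the chromatoid body, the granule of spermatids, a cell type that the fetal testis does not yet hold. *Tdrd6* (chr17:43615335-43630299, minus strand) stayed between 0.0314 and 0.12 FPKM in all 7 libraries. Its mean was below 0.5 FPKM, the level asked of a gene to enter the test. Its values overlapped between groups, and the library labelled WT replicate 3 was the lowest.

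Of the broadly expressed genes, *Tdrd3* did not share this pattern, and *Tdrd7* shared it with a smaller difference. TDRD3 reads methylated arginines on histones and on RNA polymerase II and works with topoisomerase TOP3B. *Tdrd3* (chr14:87416583-87545508, plus strand) had 40.8, 43.4 and 38 FPKM in WT and 42.6, 46.9, 40.1 and 40.7 FPKM in Mutant. The groups overlapped almost wholly, and the library labelled WT replicate 3 was again the lowest. The means were 40.7 ± 2.7 (SD, n = 3) and 42.6 ± 3.09 FPKM (SD, n = 4), with a log2 difference of 0.06 (SE 0.08; limma, adjusted p = 0.708).

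TDRD7 is found in chromatoid bodies and also in RNA granules of the lens. *Tdrd7* (chr4:45965335-46034765, plus strand) had 14.6, 15.4 and 7.55 FPKM in WT and 9.4, 9.53, 9.43 and 8.21 FPKM in Mutant. As for the germ-line-restricted genes, WT replicates 1 and 2 were the highest libraries, and the library labelled WT replicate 3 was the lowest of all 7. The means were 12.5 ± 4.33 (SD, n = 3) and 9.14 ± 0.624 FPKM (SD, n = 4), and the log2 difference was -0.37 (SE 0.22; limma, adjusted p = 0.411).

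In all, none of the 9 genes tested passed the threshold with all 7 libraries, as against 0.00715% of all genes tested (1 of 13988 genes, *Cpsf4l*). At an unadjusted p under 0.05, 4 of the 7 germ-line-restricted genes tested were lower in Mutant (*Tdrd1*, *Tdrkh*, *Rnf17* and *Stk31*), against 8.79% of all genes tested. All 7 had a negative log2 difference, with a median of -1.2, while 47.9% of all genes tested had one and their median was 0.01. The median of the 2 broadly expressed genes was -0.16.

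When the library labelled WT replicate 3 was left out, 6 of the 7 germ-line-restricted genes tested were lower in Mutant past the threshold, against 3.99% of all genes. The log2 difference was -1.79 for *Stk31* (SE 0.15; limma, adjusted p = 0.00485), -1.03 for *Tdrkh* (SE 0.11, adjusted p = 0.00636) and -1.29 for *Rnf17* (SE 0.15, adjusted p = 0.00771). For *Tdrd12* it was -1.18 (SE 0.15; limma, adjusted p = 0.00872), for *Tdrd1* -1.96 (SE 0.27, adjusted p = 0.0109) and for *Tdrd5* -2.17 (SE 0.32, adjusted p = 0.0127). For *Tdrd9* the log2 difference was -2.46 and did not pass (limma, adjusted p = 0.0697). *Tdrd7* fell by 0.69 (SE 0.09; limma, adjusted p = 0.00872), and *Tdrd3* had a difference of 0.01 (limma, adjusted p = 0.94). In that comparison every Mutant library was below both remaining WT libraries for 17.1% of all genes tested. The library left out was low for most of these same genes, so its removal favours a difference and these p-values give no independent support. When any other single library was left out, none of the genes passed (limma).

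Reads in introns gave a second view of the same genes. The authors' counts over repeat elements were summed over the elements that lie in 1 gene and outside its exons, and given as CPM, that is, scaled to the library size after TMM normalization. Such reads come from unspliced RNA or from RNA that starts within the gene, and they are other fragments than those behind the exon-based FPKM of the same libraries. For *Stk31*, with 110 such elements, they numbered 744, 410 and 296 in WT and 212, 242, 240 and 212 in Mutant. *Rnf17*, with 227 elements, had 501, 455 and 252 reads in WT and 219, 160, 232 and 218 in Mutant. At the lower end *Tdrkh*, with 21 elements, had 39, 29 and 16 reads in WT and 20, 19, 10 and 16 in Mutant, and *Tdrd6* had 13 reads over all libraries and was not tested.

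WT replicates 1 and 2 were above every Mutant library in CPM for each of the 7 germ-line-restricted genes tested, and the library labelled WT replicate 3 was within or below the Mutant range for all 7. *Tdrd1* had 24.9, 44.3 and 7.47 CPM in WT and 9.08 to 12.2 CPM in Mutant. *Tdrd9* had 27.3, 84.2 and 7 CPM in WT and 5.88 to 16.2 CPM in Mutant. *Tdrd5* had 79.2, 59.6 and 21.5 CPM in WT and 20.8 to 31.4 CPM in Mutant. WT replicate 2 was thus the highest library for *Tdrd1* and *Tdrd9* and WT replicate 1 for *Tdrd5*. *Stk31* had 295, 224 and 138 CPM in WT and 113 to 139 CPM in Mutant, and *Rnf17* had 198, 249 and 118 CPM in WT and 91.4 to 134 CPM in Mutant. *Tdrd12* had 93.1, 72.2 and 24.3 CPM in WT and 39.4 to 47.5 CPM in Mutant, so that the library labelled WT replicate 3 was below all Mutant libraries.

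**Figure D2:**
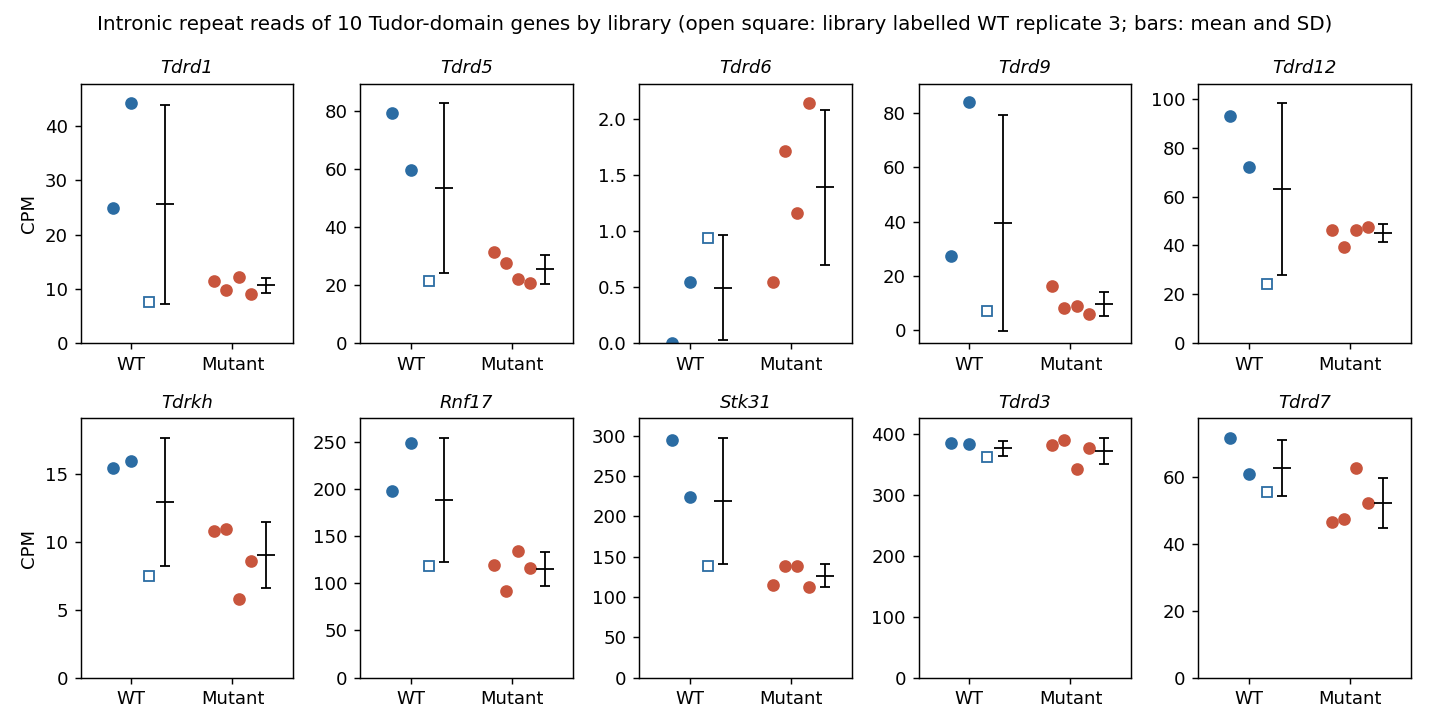
Intronic repeat reads (CPM, vertical axis, a linear scale of its own in each panel) of the 10 genes in each library, drawn as for FPKM with the library labelled WT replicate 3 as an open square. *Tdrd3* stays between 342 and 390 CPM in all libraries, while *Stk31* has 224 and 295 CPM in WT replicates 1 and 2 and 113 to 139 CPM in Mutant.

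*Tdrd3* had 385, 383 and 363 CPM in WT and 382, 390, 342 and 377 CPM in Mutant, with a log2 difference of -0.02 (SE 0.08; edgeR, adjusted p = 0.961). *Tdrd7* had 71.7, 60.7 and 55.5 CPM in WT and 46.5, 47.4, 62.6 and 52.3 CPM in Mutant, with overlapping groups and a difference of -0.27 (SE 0.14; edgeR, adjusted p = 0.497). None of the 9 genes tested passed the threshold with all libraries (0.199% of 11558 genes did, *Glis3* among them with a difference of -0.84, SE 0.15 and adjusted p = 0.0352). In none did the groups fail to overlap, as they did with Mutant lower for 4.78% of all genes. The nearest to the threshold was *Stk31* at -0.8 (SE 0.18; edgeR, adjusted p = 0.1), which did pass with DESeq2 (adjusted p = 0.00829). At an unadjusted p under 0.05 in edgeR, *Tdrd1* (-1.25, SE 0.41), *Tdrd5* (-1.08, SE 0.31), *Tdrd9* (-1.98, SE 0.57), *Rnf17* (-0.7, SE 0.19) and *Stk31* were lower in Mutant, against 5.37% of all genes tested. All 7 germ-line-restricted genes tested had a negative difference, with a median of -0.8, and so did 50.8% of all genes.

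Without the library labelled WT replicate 3, intronic reads of 6 germ-line-restricted genes fell past the threshold, against 0.82% of 11590 genes. The log2 differences in edgeR were -2.48 for *Tdrd9* (SE 0.4, adjusted p = 0.00567), -1.68 for *Tdrd1* (SE 0.27, adjusted p = 0.00551) and -1.46 for *Tdrd5* (SE 0.19, adjusted p = 0.00116). They were smaller for *Stk31* (-1.05, SE 0.12; edgeR, adjusted p = 5e-04), *Rnf17* (-0.95, SE 0.13, adjusted p = 0.00199) and *Tdrd12* (-0.88, SE 0.15, adjusted p = 0.00732). *Tdrkh*, with the fewest reads of the genes tested, had a difference of -0.79 and did not pass (edgeR, adjusted p = 0.251), nor did *Tdrd7* (-0.35, adjusted p = 0.341). Here too the library left out was low for the germ-line-restricted genes, and none passed when any other single library was left out (edgeR).

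**Figure D3:**
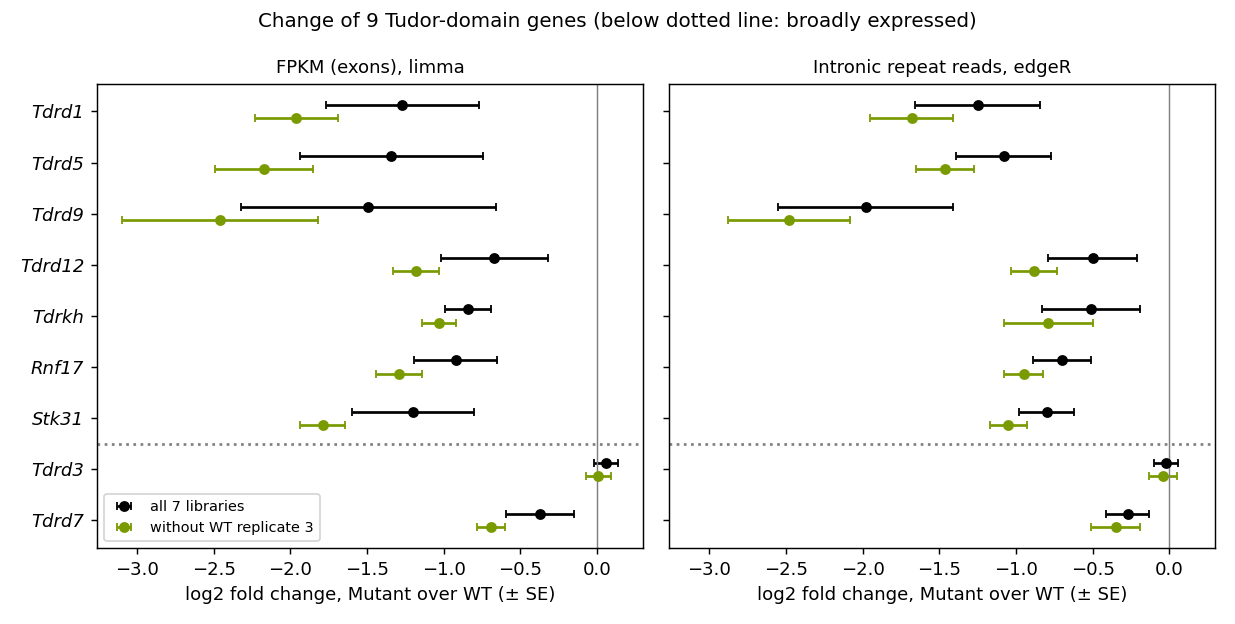
Log2 fold change of Mutant over WT (horizontal axis, with bars of 1 standard error) for the 9 genes tested, from FPKM on the left and intronic repeat reads on the right, with all 7 libraries in black and without the library labelled WT replicate 3 in green. The 7 germ-line-restricted genes lie left of 0 in both panels, *Tdrd3* lies at 0.06 and -0.02, and *Tdrd7* lies between them at -0.37 and -0.27.

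Per library, the mean log2(FPKM + 0.5) of the 8 germ-line-restricted genes was 3.58, 4.01 and 2.22 in WT and 2.7, 2.33, 2.17 and 1.98 in Mutant. That of the broadly expressed genes was 4.64, 4.72 and 4.14 in WT and 4.37, 4.45, 4.33 and 4.24 in Mutant. The first class minus the second gave -1.06, -0.72 and -1.92 in WT and -1.67, -2.12, -2.16 and -2.26 in Mutant. Only Mutant replicate 1 was above the library labelled WT replicate 3 on this measure. Mean values of -1.23 ± 0.62 (SD, n = 3) and -2.05 ± 0.26 (SD, n = 4) differed by -0.82 on the log2 scale, given without a test since the genes were chosen with results known. The difference was -1.16 without the library labelled WT replicate 3 and -0.56 without WT replicate 2. *Tdrd6*, near 0 FPKM, adds to the class a value set largely by the pseudocount. With genes averaging at least 2 FPKM only, which leaves *Tdrd6* out, the difference was -0.95.

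Germ cell genes outside the Tudor family were also highest, as a mean over the list, in WT replicates 1 and 2. Over 17 genes such as *Dazl*, *Pou5f1* and *Sall4*, the mean log2(FPKM + 0.5) was 4.88, 4.35 and 3.76 in WT and 3.65, 3.55, 3.66 and 3.46 in Mutant, so the library labelled WT replicate 3 was just above all Mutant libraries here. All 17 had a negative log2 difference, with a median of -0.84, and none passed the threshold (limma). The lowest was *Tex101*, a surface protein of germ cells (-1.14, SE 0.81; limma, adjusted p = 0.499), and the highest *Kit*, the receptor of stem cell factor (-0.12, SE 0.19; limma, adjusted p = 0.79). At an unadjusted p under 0.05, 10 of the 17 were lower in Mutant (all genes, 8.79%), and 5 of the 17 had every Mutant library below every WT library (all genes, 7.59%). Of these 17 genes, 10 are pluripotency genes, with a median of -0.8. Without them the list mean was 3.1 in the library labelled WT replicate 3 and 2.8 to 3.15 in Mutant. That library then lay within the Mutant range.

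Set against the mean of these germ cell genes in the same library, each of the 7 germ-line-restricted genes tested had a smaller difference between groups than in FPKM alone. The list mean itself differed by -0.75 between Mutant and WT, and subtracting it shifts the difference of every gene alike. The smaller differences follow from this shift and are not particular to these genes. *Tdrd1* was -1.73, -0.44 and -2.29 on this log2 scale in WT and -1.58, -2.13, -2.09 and -2.24 in Mutant, and *Tdrd5* was 0.2, 0.77 and -1.15 in WT and -0.05, -0.35, -1.08 and -1.1 in Mutant. WT replicate 2 was the highest library for both, and WT replicate 1 lay within the Mutant range for *Tdrd1*. The difference of the means was -0.52 for *Tdrd1* (exact permutation p = 0.4), -0.59 for *Tdrd5* (exact permutation p = 0.371), -0.74 for *Tdrd9* (exact permutation p = 0.429) and -0.45 for *Stk31* (exact permutation p = 0.257). It was -0.17 for *Rnf17*, -0.09 for *Tdrkh* and 0.08 for *Tdrd12* (exact permutation p = 0.714, 0.6 and 0.857). *Tdrd3* was higher in every Mutant library (1.68 to 2.02) than in every WT library (0.49 to 1.51), as 57.6% of all genes were on this scale, on which the median difference of all genes was 0.76. *Tdrd7* was likewise higher in Mutant (-0.35 to -0.22) than in WT (-0.96 to -0.36), with a difference of 0.38 where that in FPKM alone was negative. *Tdrd6* was at -4.57 to -4.34 in Mutant and -5.63 to -4.67 in WT, values set largely by the pseudocount. The exact permutation test gave p = 0.0286 for each of these 3 genes. In limma *Tdrd9* was lower in Mutant past the threshold (adjusted p = 0.0405), as were 0.172% of all genes, and *Tdrd3* was higher (adjusted p = 0.0282), as were 69.2%. These p-values are too small, because the noise of the subtracted list enters every gene at once, and no gene passed when each gene's own spread was used.

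**Figure D4:**
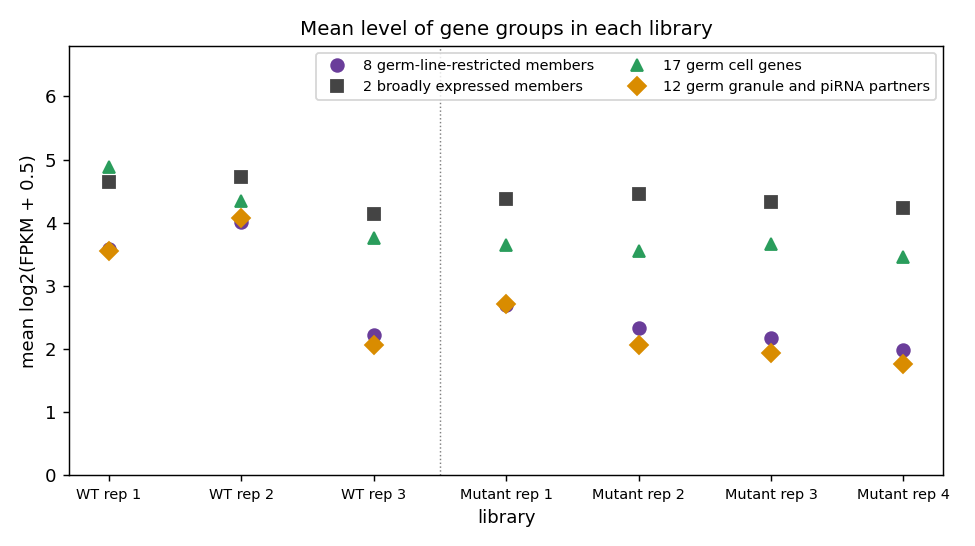
Mean log2(FPKM + 0.5) in each library (vertical axis) of the 8 germ-line-restricted and the 2 broadly expressed Tudor-domain genes, 17 germ cell genes and 12 germ granule and piRNA partners. The germ-line-restricted genes and the partners lie close to each other in every library, at 3.56 to 4.08 in WT replicates 1 and 2 and between 1.76 and 2.71 in the other 5 libraries.

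The partners of the Tudor proteins in germ granules and the piRNA pathway, among them the PIWI genes, *Ddx4* and *Mael*, showed a similar level per library (3.56, 4.08 and 2.06 in WT and 2.71, 2.07, 1.94 and 1.76 in Mutant, as mean log2(FPKM + 0.5) of 12 genes). All 11 tested had a negative difference, with a median of -1.1, 7 at an unadjusted p under 0.05 (all genes lower in Mutant, 8.79%) and 2 with every Mutant library below every WT library (all genes, 7.59%). None of the 11 passed the threshold in limma with all libraries. *Gtsf1*, a zinc finger partner of PIWI proteins, had the lowest difference (-1.66, SE 1.14, limma adjusted p = 0.485). The highest was that of *Pld6*, a mitochondrial protein that processes piRNA precursors (-0.62, SE 0.13, limma adjusted p = 0.157). In intronic reads 2 of 8 passed in edgeR (0.199% of all genes in either direction) and all 8 were lower in Mutant, with a median of -1.06. Without the library labelled WT replicate 3, 9 of the 11 partners and 9 of the 17 germ cell genes were lower past the threshold in FPKM (limma), against 3.99% of all genes.

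Genes that make the arginine marks read by Tudor domains, and other Tudor-domain genes outside the group of 10, had medians closer to that of all genes. Of 5 genes of symmetric arginine methylation (*Prmt5* and its cofactors), 4 had a negative difference, with a median of -0.21, 2 were lower at an unadjusted p under 0.05 (all genes, 8.79%) and 2 had all Mutant libraries below all WT libraries (all genes, 7.59%). *Coprs*, a cofactor of PRMT5, was lowest at -0.52 (SE 0.11; limma, adjusted p = 0.153) and *Riok1* highest at 0.03 (SE 0.06; limma, adjusted p = 0.851). Of 20 other Tudor-domain genes, which include histone readers and splicing factors, 14 had a negative and 6 a positive difference, with a median of -0.09. In this list 5 genes were lower at an unadjusted p under 0.05 (all genes, 8.79%). Groups did not overlap for 5 with Mutant lower (all genes, 7.59%) and 2 with Mutant higher (all genes, 7.31%). *Phf20* was lowest at -0.44 (SE 0.13; limma, adjusted p = 0.186), and *Uhrf1*, which guides maintenance of DNA methylation, highest at 0.22 (SE 0.08; limma, adjusted p = 0.244). None of these 25 genes passed with all libraries. Without the library labelled WT replicate 3, 1 of the 20 and 1 of the 5 were lower past the threshold (limma), against 3.99% of all genes.

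The genes with profiles most like the germ-line-restricted class were sought among the 11538 genes that averaged 2 FPKM or more, by Pearson correlation over the 7 libraries with the mean of the 7 genes tested. They were *Mael* (r = 0.996), *Kdm1b* (r = 0.996), *Ezh1* (r = 0.995), *Piwil2* (r = 0.993) and *Lrrc42* (r = 0.993), and 483 genes were above 0.9. The points are 7 whole-testis libraries that differ in depth, and the correlation ignores the size of a change. *Mael*, a germ granule protein needed for silencing, had 67.1, 128 and 18.8 FPKM in WT and 12.9 to 30.6 FPKM in Mutant. *Kdm1b*, a histone demethylase, had 16.1, 18.3 and 11.9 FPKM in WT and 11.5 to 13 FPKM in Mutant, a smaller range. Among the 10 genes themselves, *Tdrd7* had r = 0.95 with the mean of the germ-line-restricted genes and *Tdrd3* r = 0.23. The germ-line-restricted genes tested had r = 0.84 (*Tdrkh*) to 0.99 (*Tdrd1* and *Stk31*), each against the mean of the others.

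Markers of other cells of the testis and its surroundings were measured beside these results, and their part in them was not tested. Of 10 Sertoli cell genes, 9 had a positive difference, with a median of 0.18, from *Fgf9* (-0.16) to *Cst9* (0.27), and their summed level was 1100 to 1380 FPKM in WT and 1340 to 1510 FPKM in Mutant. All 6 fetal Leydig cell genes had a positive difference, with a median of 0.47, from *Lhcgr* (0.32) to *Insl3* (0.66), and summed to 1600 to 2670 FPKM in WT and 2510 to 3080 FPKM in Mutant. The 4 adrenal cortex genes had positive differences, with a median of 0.4, from *Mc2r* (0.24) to *Cyp11b1* (0.8), and summed to 16.1 to 26.4 FPKM in WT and 24.4 to 33.7 FPKM in Mutant. Of the blood genes 5 of 6 were tested, with a median of 0.23, from *Hbb-bs* (-0.74) to *Alas2* (0.48), and sums of 1210 to 3790 FPKM in WT and 511 to 2700 FPKM in Mutant. Of the mesonephric genes 3 of 6 were tested, with a median of -0.12, from *Lhx1* (-0.79) to *Pax8* (0.04), and sums of 8.05 to 10.9 FPKM in WT and 7.69 to 9.63 FPKM in Mutant. None of the genes on these lists passed the threshold in limma with all libraries. At an unadjusted p under 0.05, 5 of the 6 Leydig cell, 2 of the 10 Sertoli cell and 2 of the 4 adrenal cortex genes were higher in Mutant, against 8.21% of all genes tested. Groups did not overlap, with Mutant higher, for 2 Leydig cell genes and 1 Sertoli cell gene, against 7.31% of all genes. Without the library labelled WT replicate 3, 2 of the 10 Sertoli cell genes were higher past the threshold in limma, against 1.16% of all genes, and their list had a median of 0.32. No marker was at 0 in every library.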

How the data were processed

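Gene expression was taken from the FPKM table that the authors deposited, made with TopHat2 2.0.12 on mm10 and Cuffnorm on RefSeq models, and repeat expression from the raw read counts per RepeatMasker locus that the authors made with HTSeq. In both files the header lacks the separator between the third WT and the first Mutant column, so columns were read by position and matched to the titles in the header. Symbols listed more than once numbered 284 among the genes with FPKM, none of them a gene described here.

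FPKM were tested as log2(FPKM + 0.5) with limma 3.58.1 (trend, two-sided) over the 13988 genes that averaged 0.5 FPKM or more, adjusted over all of them by Benjamini-Hochberg and a threshold of 0.05. Fold changes on this scale understate those of low genes. Single values were compared by exact permutation tests. Counts were summed over 1391234 of 3494995 loci that lie in 1 gene of GENCODE M21 and outside exons (bedtools 2.31.1), 1707023 to 2528023 reads per library, and compared by quasi-likelihood in edgeR 4.0.16 (TMM) over 11558 genes with a mean of at least 10 reads. DESeq2 1.42.0 was an alternative. R 4.3.3 and Python 3.11.15 were used. The tests were also tried on simulated data, with no outcome given here, so that step lends the results no support. Reads are not stranded.

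The genes, their classes and the lists (germ granule and piRNA partners, symmetric arginine methylation, other Tudor-domain genes, germ cell, Sertoli cell, fetal Leydig cell, mesonephric, adrenal cortex and blood genes) were chosen with earlier results of these data known. All 10 genes are named, and of each other list the gene with the lowest and the gene with the highest fold change among those tested. Genes of like profile are the 5 with the highest correlation, and *Glis3* is named as the check of the labels. The genes given as examples of a list, and *Cpsf4l*, *Mael* and *Kdm1b* with their values, were added to this rule. Each library is 1 embryo, so the spread is that between embryos. Alternatives were other pseudocounts, filters, scalings and variance models, a replicate block, the classes without *Tdrkh*, other scales of germ cell genes, loci anywhere in the gene body, and leaving out each library. Each gene's own spread and the lists without WT replicate 3 were added after the data had been seen. Cuffdiff needs aligned reads and was not run.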

Additional observations from a re-analysis of the deposited data

Results flagged for a closer look

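Within the 4 Mutant libraries 2 values stood far from the others by Dixon's test of the gap over the range at its 95% critical value, which chance passes in about 1 in 20 groups. *Tdrd12* in intronic repeat reads had a gap of 0.864 of its range, with 39.4 CPM in Mutant replicate 2 and 46.3 to 47.5 CPM in the other 3. *Tdrd7* in FPKM had a gap of 0.903, with 8.21 FPKM in Mutant replicate 4 and 9.4 to 9.53 FPKM in the other 3. Neither gene passed the test between groups with all libraries.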

How the results depend on the processing

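The number of Tudor-domain genes past the threshold in FPKM, 0 of 9, was the same under every other pseudocount, filter, scaling and variance model. It was 0 to 7 when 1 library was left out, the 7 only without the library labelled WT replicate 3 (720 of all genes). In intronic reads (0 of 9) it was 1 with DESeq2 (34 of all genes) and 6 with no filter on low counts (352 of all genes), for which the cause was not tested. With 1 library left out the number was 0 to 6, the 6 without the same library (136 of all genes). The difference between the classes (-0.82) was -1.16 to -0.56 over the libraries left out. Relative to the germ cell list (2 genes) the number was 1 with a pseudocount of 1, 1 with the list without its pluripotency genes, 0 with each gene's own spread, and 0 to 5 with 1 library left out, the 5 without WT replicate 3. There the sign of some differences turned. Scaled to *Ddx4* alone, *Tdrkh* was 0.24 and *Rnf17* 0.17. Over the libraries left out, *Tdrd9* was -1.42 to 0.16, *Tdrkh* -0.29 to 0.02 and *Rnf17* -0.37 to 0.13, each highest without WT replicate 2, and *Tdrd12* was -0.14 to 0.35, negative without WT replicate 3 and, at -0.01, without Mutant replicate 1. In intronic reads *Tdrd3* was -0.04 to 0.02, positive without Mutant replicate 3. None of the values of turned sign was past the threshold, though *Tdrd9* had passed at -0.74 with all libraries.

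Deviations of same-numbered libraries correlated at 0.2, -0.18 and 0.23, and those of other pairs of a WT and a Mutant library at -0.3 to 0.17. This does not settle whether the replicate numbers pair the libraries. With a replicate block, in which Mutant replicate 4 stands alone, 0 genes passed in FPKM (*Tdrkh* -0.81, limma adjusted p = 0.352), 0 in intronic reads and 0 relative to the germ cell list, and the difference between the classes was -0.75. Depth limits *Tdrd6* and the intronic reads of *Tdrkh*, and FPKM without counts give no interval for a single value.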
